A study of Mus musculus with 2 samples.

Results

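The 10 genes described here carry peptide presentation by major histocompatibility complex (MHC) class I: *H2-K1*, *H2-D1*, *B2m*, *Tap1*, *Tap2*, *Tapbp*, *Psmb8*, *Psmb9*, *Nlrc5* and *H2-T23*. They were taken by symbol from the 32285 genes counted in single-cell RNA sequencing of optic nerves from *Nf1*-OPG mice, and all 10 were found. Their RNA was compared across cells with glioma markers, across the subtypes of oligodendrocytes and across immune cells.

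Class I molecules show short peptides from the cytosol on the cell surface, where CD8+ T cells and natural killer (NK) cells read them. The immunoproteasome subunits *Psmb8* and *Psmb9* cut proteins into peptides, the transporter subunits *Tap1* and *Tap2* bring the peptides into the endoplasmic reticulum, and tapasin (*Tapbp*) helps load them onto a heavy chain (*H2-K1* or *H2-D1*) paired with beta-2 microglobulin (*B2m*). *H2-T23* encodes Qa-1, a non-classical heavy chain that NK receptors of the CD94/NKG2A kind bind, and *Nlrc5* encodes a transactivator of class I genes. In the healthy nervous system the pathway is known to be low in neurons and oligodendrocytes and to rise under interferon.

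Both libraries came from 12-week-old *Nf1*-OPG mice on a C57BL/6 background, which carry 1 germline mutant and 1 floxed *Nf1* allele, and in which Cre under a GFAP promoter removes the remaining allele in glial cells. Every non-glial cell of these mice is therefore also *Nf1*-heterozygous, no wild-type nerve was included, and the nerves of 10 mice were pooled for a suspension according to the labels. The libraries are called C-ON (titled as the control) and FMC_new here. Their labels give the same genotype, tissue and age, so each is a single sample, and what else differs between them cannot be told apart from the library itself. After filtering, 8834 of 10845 barcodes remained in C-ON (median 6810.5 unique molecular identifiers, UMIs, per cell) and 16818 of 21341 in FMC_new (median 4676 UMIs). The libraries shared 296 barcodes. Total depth was 85101211 and 129113325 UMIs.

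Cells were clustered without the 10 genes, and clusters were named from fixed markers. Both clusters called glioma-like passed for 8 of 8 markers of oligodendrocyte precursor kind (*Pdgfra*, *Cspg4*, *Ptprz1*, *Vcan* and others). Nothing in the files separates tumour cells from precursor cells without tumour, so both are covered by that name. The 6 oligodendrocyte-like clusters passed for 7 or 8 of 8 myelin markers. FMC_new also held 359 pituitary endocrine-like cells, and the growth hormone gene *Gh* was read at 2671 CPM (UMIs divided by those of all genes and scaled to 1e6) in its oligodendrocyte-like cells and in 0 UMIs in those of C-ON (3 UMIs, the limit that a count of 0 allows, would be 0.0637 CPM). That RNA is foreign to oligodendrocytes. Whether it was free pituitary RNA of the FMC_new suspension or came from doublets (barcodes that hold more than a single cell) was not tested.

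Of the 10 genes, 8 lie on chromosome 17 (build GRCm38), with *B2m* on chromosome 2 (122147686 to 122153083, plus strand) and *Nlrc5* on chromosome 8 (94434356 to 94527272, plus strand). *Psmb9* (34181987 to 34187764, minus), *Tap1* (34187553 to 34197225, plus), *Psmb8* (34197721 to 34201454, plus) and *Tap2* (34203527 to 34216321, plus) sit side by side. *H2-K1* (33996017 to 34000347, minus) and *Tapbp* (33915899 to 33929292, plus) flank them on one side, and *H2-D1* (35262730 to 35267499, plus) and *H2-T23* (36029773 to 36032855, minus) lie on the other. Exons of *Tap1* and *Psmb9* overlap on opposite strands, and exons of *Tapbp* overlap those of *Zbtb22* on the same strand. Part of their reads could be split between the neighbours, and how large a part was not tested. Exact 90-base stretches shared with other genes made up 4.25% of *H2-D1*, 4.01% of *H2-T23*, 1.54% of *H2-K1* and 0.338% of *Tapbp* exon sequence, and none was found in the remaining 6 genes.

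The bases just upstream of *H2-K1* and *B2m* are shown because both genes reappear in each comparison below, and because each stretch holds a motif of a pathway that drives class I. RefSeq promoters (GRCm38.p6) were at hand for 8 of the 10 genes, and sequences of *Tap2* and *Nlrc5* were not used here. Capitals mark a kappaB match (GGGGA, any base, then TCCCC) in *H2-K1* and the core of an interferon-stimulated response element (ISRE: GAAA, any 2 bases, then GAAA) in *B2m*. The *H2-K1* stretch is chr17:34000348-34000547 on the minus strand, the *B2m* stretch chr2:122147487-122147685 on the plus strand.
H2-K1: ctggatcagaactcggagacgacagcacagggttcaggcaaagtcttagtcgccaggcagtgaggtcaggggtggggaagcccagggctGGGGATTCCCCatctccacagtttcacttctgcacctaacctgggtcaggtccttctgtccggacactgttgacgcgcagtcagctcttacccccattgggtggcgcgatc
B2m: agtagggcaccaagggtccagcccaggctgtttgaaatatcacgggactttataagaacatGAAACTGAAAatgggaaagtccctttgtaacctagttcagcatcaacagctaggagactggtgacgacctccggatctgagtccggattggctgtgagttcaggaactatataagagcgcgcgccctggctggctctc

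Of the other genes, 30 bases around each match are shown, so that the sites can be compared. Capitals again mark the matched letters. The lines give kappaB of *H2-K1* (chr17:34000439-34000468, minus strand), kappaB of *H2-D1* (chr17:35262913-35262942, plus strand), the ISRE core of *H2-T23*, which reads on the other strand (chr17:36032806-36032835, minus strand), and a gamma-activated site (GAS: TTC, any 3 bases, then GAA) of *Psmb8* (chr17:34198087-34198116, plus strand).
H2-K1: gcccagggctGGGGATTCCCCatctccaca
H2-D1: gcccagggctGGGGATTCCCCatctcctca
H2-T23: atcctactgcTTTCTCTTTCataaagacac
Psmb8: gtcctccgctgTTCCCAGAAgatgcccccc

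The classical heavy chain genes shared an identical run of 47 bases before their RefSeq starts that includes the kappaB match, which begins at position -111 of *H2-K1* and -171 of *H2-D1*, counted from the RefSeq start. The ISRE core began at -139 of *B2m* and -124 of *H2-T23*, and the GAS at -97 of *Psmb8*. Among 32851 promoter windows of the same length, searched on both strands, 3.44% held the ISRE core, 8.30% the GAS and 0.0487% the kappaB letters (16 windows, of which 3 belong to *H2-K1* and *H2-D1*). None of the 3 motifs was found in the windows of *Tap1*, *Psmb9* and *Tapbp*. Only the exact letters given above were searched, so other forms of these elements would be missed in any of the genes, *H2-K1* included. CCAAT, searched as the fourth motif, is common (37.4% of windows) and was found in each of the 8 genes except *Psmb8*. No matches overlapped. The 30 bases shown for *H2-D1*, *H2-T23* and *Psmb8* lie within exons of longer transcripts in the GENCODE annotation, and those of *H2-K1* and *B2m* do not. *Psmb9* and *Tap1* start head to head, with 225 bases between their RefSeq starts.

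The first comparison asked how much class I RNA each kind of cell carried. Levels are CPM of UMIs summed over the cells of a class within a library. A UMI is counted from the 5′ end of a molecule, so it was not divided by transcript length, and levels are set side by side between cell classes for the same gene rather than between genes. Intervals on single libraries cover counting error only.

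*H2-K1*, a classical heavy chain, was read at 3466 CPM (C-ON) and 3669 CPM (FMC_new) in T cell-like cells, at 2723 and 2936 in microglia-like cells, and at 2586 and 2224 in dendritic cell-like cells. Glioma-like cells stood below these in both libraries, at 747 and 1487 CPM, and oligodendrocyte-like cells lower again, at 345 and 1042 CPM. Neuron-like cells had the lowest mean over both libraries, at 90.7 and 86.7 CPM (25 and 15 UMIs in 35 and 20 cells), and in C-ON the 20 astrocyte-like cells held a single *H2-K1* UMI (14.1 CPM, against 1130 CPM in FMC_new). In the order of mean levels over both libraries, the ranges of neighbours overlapped from T cell-like (3567 ± 143, SD, n = 2) down to dendritic cell-like cells (2405 ± 256), which lay above macrophage-like cells (1887 ± 392). Plasma cell-like cells (1774 ± 25.9) lay above glioma-like cells (1117 ± 523), and glioma-, fibroblast- (734 ± 285), oligodendrocyte- (694 ± 493) and astrocyte-like cells did not differ from their neighbours beyond the ranges of the libraries.

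The order was not the same for each member. *H2-D1*, the other classical heavy chain, was highest in microglia-like cells (3317 ± 71.1 CPM, SD, n = 2), above NK cell-like (2732 ± 176) and T cell-like cells (2444 ± 51.6), and the ranges of these neighbours did not overlap. *B2m*, the invariant light chain, was also highest in microglia-like cells, at 2876 and 4256 CPM. *Psmb8* was highest in dendritic cell-like cells, at 826 and 830 CPM, and so were *Psmb9* (693 and 622), *Tap1* (241 and 205), *Tap2* (235 and 209) and *Tapbp* (287 and 258). Dendritic cells are the specialised cells that prime T cells with peptide. Within them, the smaller cluster led by *Ccr7* and *Il12b* (26 and 75 cells) held the highest *H2-K1* (5065 and 4452 CPM) and *Tapbp* (551 and 442 CPM) of the class, against 2091 and 1924 CPM of *H2-K1* in the cluster led by *Xcr1* and *Clec9a*.

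*Nlrc5*, the class I transactivator, was highest in T cell-like cells, at 149 and 157 CPM, and its mean was lowest in neuron-like cells, where it was read in 2 UMIs in C-ON and in 0 in FMC_new (3 UMIs, the limit that a count of 0 allows, would be 17.3 CPM). Within the T cell-like class it was unequal, at 461 and 416 CPM in the cluster led by *Grap2* and *Themis* (75 and 342 cells). *H2-T23* was at 743 and 650 CPM in dendritic cell-like, 623 and 754 CPM in microglia-like, 193 and 215 CPM in glioma-like and 39.9 and 11.6 CPM in neuron-like cells. Oligodendrocyte-like cells, at 239 and 449 CPM, lay above glioma-like cells for *H2-T23* and below them for *H2-K1*.

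**Figure D1:**
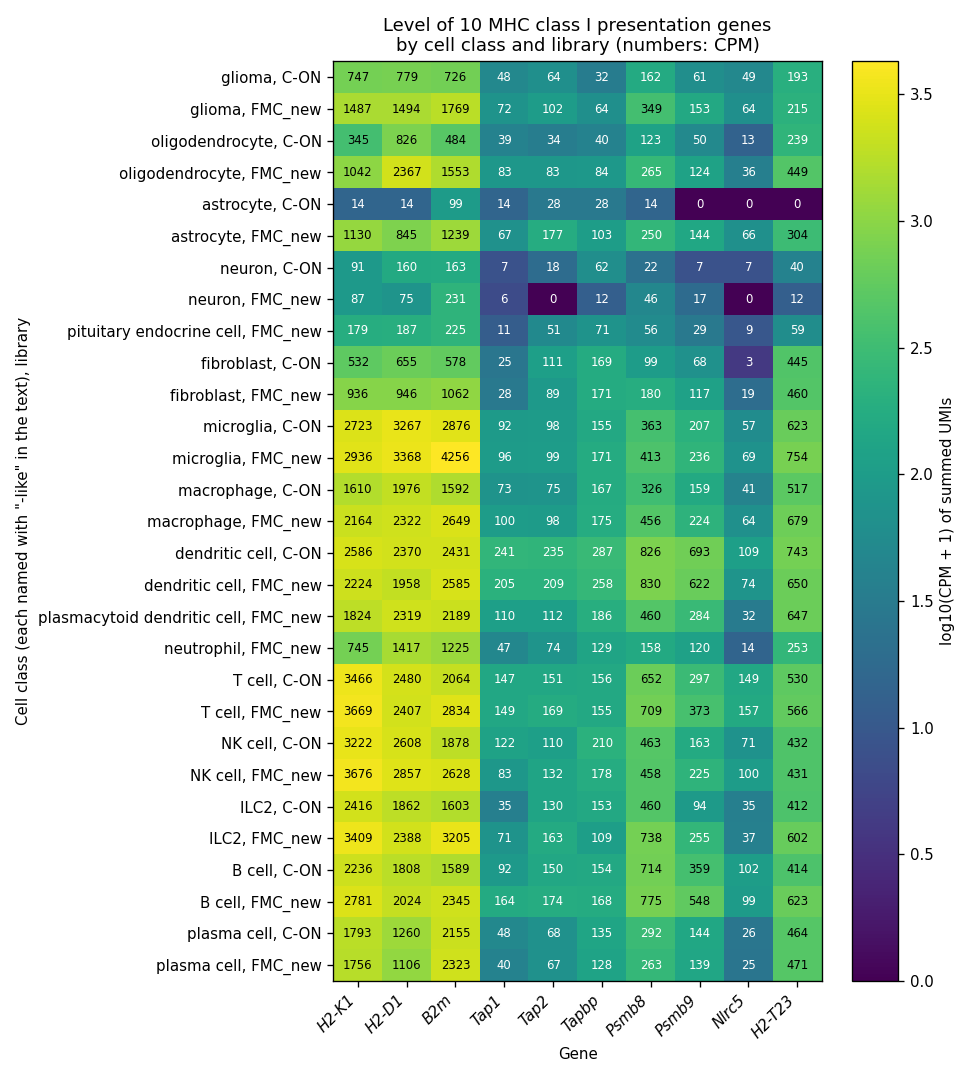
Level of each of the 10 genes (columns) in each cell class and library (rows), as CPM of summed UMIs, printed in the cells and coloured on a log10(CPM + 1) scale. T cell-, microglia- and dendritic cell-like rows are high for the heavy chains, with *H2-K1* between 2224 and 3669 CPM, while neuron-like rows stay at or below 231 CPM for every gene and the oligodendrocyte-like rows differ between the libraries.

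The share of cells with a transcript gave a like picture when each cell was thinned to 1000 UMIs. *H2-K1* was found in 24.4% (95% exact binomial interval 18.8 to 30.8) of glioma-like cells in C-ON and 62.1% (59.4 to 64.7) in FMC_new. In oligodendrocyte-like cells these shares were 13.5% (12.6 to 14.4) and 49.8% (47.7 to 51.9), and in T cell-like cells 94.0% and 95.0%. No class should lack class I altogether. As a low reference, neuron-like cells gave 8.57% (1.80 to 23.1) and 10.0% (1.23 to 31.7) at median depths of 8045 and 9150.5 UMIs, and the pituitary endocrine-like cells of FMC_new 16.7% (13 to 21) at a median of 11911, against median depths of 7929 and 7732 in oligodendrocyte-like cells.

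The second comparison set glioma-like against oligodendrocyte-like cells. *H2-D1*, *Tapbp* and *H2-T23* were higher in oligodendrocyte-like cells in both libraries, and 6 of the 10 genes were lower there in both. For example, *H2-D1* stood at 826 (C-ON) and 2367 CPM (FMC_new) in oligodendrocyte-like and at 779 and 1494 CPM in glioma-like cells. *Nlrc5* went the other way, at 12.95 and 35.8 CPM in oligodendrocyte-like and 49.0 and 63.7 CPM in glioma-like cells. *Tap1* was lower in oligodendrocyte-like cells in C-ON (39.2 against 48.2 CPM) and higher in FMC_new (82.9 against 71.8 CPM).

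Glioma-like cells also carried leukocyte transcripts. A list of 10 leukocyte genes summed to 2013 and 4471 CPM in them against 99.0 and 449 CPM in oligodendrocyte-like cells, and *Cd74*, the class II invariant chain, made up 1039 and 2151 CPM of it (45 and 191 CPM in oligodendrocyte-like cells). When cells with any UMI of that list were left out, 119 and 166 glioma-like cells remained, with *H2-K1* at 131 and 623 CPM, against 230 and 913 CPM in the 3646 and 566 oligodendrocyte-like cells left. Then 8 of the 10 genes, in place of 3, were higher in oligodendrocyte-like cells in both libraries. Cells were left out by the whole list, class II genes included. Without the class II genes *Cd74*, *H2-Aa* and *H2-Ab1* the list summed to 258 and 883 CPM in all glioma-like cells and to 22.5 and 151 CPM in all oligodendrocyte-like cells. Whether the leukocyte transcripts were the cells' own was not tested.

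Each of the 10 genes was higher in FMC_new than in C-ON in oligodendrocyte-like cells, by a median of 2.47 times (1.88 to 3.21). In glioma-like cells the median was 1.94 times (1.12 to 2.52). Macrophage-like cells (1.36 times, 9 of 10 apart), fibroblast-like cells (1.44 times, 6 apart) and B cell- and ILC2-like cells (1.2 and 1.41 times, 5 apart in each) were also higher in FMC_new. Astrocyte-like cells were higher in FMC_new too, with *H2-K1* in 1 UMI of 20 cells of C-ON and at 1130 CPM in FMC_new. In T cell-like cells the median was 1.06 times (0.971 to 1.37) and in microglia-like cells 1.12 (1.02 to 1.48), with *B2m* the highest ratio in both. It was 0.967 (0.822 to 1.08) in plasma cell-like and 0.882 (0.674 to 1.06) in dendritic cell-like cells. There is 1 library on each side, so these differences have no replicate check.

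Among oligodendrocyte-like cells, class I RNA was concentrated in a single cluster. Cluster 3, led by *C4b*, *Serpina3n*, *Klk6* and *Iigp1*, held 14.9% of these cells in C-ON (830 cells) and 34.6% in FMC_new (800 cells). It carried between 68.3% (*Tapbp*) and 95.7% (*Tap1*) of the oligodendrocyte-like UMIs of each member in C-ON, and between 66.4% (*Nlrc5*) and 83.6% (*H2-T23*) in FMC_new. The clusters were made from other genes of the same cells, among them interferon-induced genes such as *Iigp1*, so this is a description.

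The level inside cluster 3 was much alike in the libraries. *H2-K1* was read there at 1834 (C-ON) and 1852 CPM (FMC_new), *H2-D1* at 4199 and 4242, and *B2m* at 2440 and 2808. The other members ranged from 0.717 times (*H2-T23*, 1400 and 1003 CPM) to 0.972 times (*Nlrc5*, 65.3 and 63.5 CPM) of C-ON. At 4199 CPM or more, *H2-D1* in these oligodendrocyte-like cells exceeded its level in the microglia-like class (3267 and 3368 CPM).

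In the other large clusters the libraries differed. Clusters 0, 2, 5 and 12 together (4677 and 1319 cells) had *H2-K1* at 42.4 CPM in C-ON and 418 in FMC_new, *H2-D1* at 152 and 1098, and *B2m* at 92.7 and 674. The median ratio over the 10 genes was 7.38, from 2.25 for *Tapbp* to 23.7 for *Tap1* (0.820 and 19.4 CPM). The level within a cluster thus differed between the libraries in these clusters, while in cluster 3 the ratio ran from 0.717 (*H2-T23*) to 1.15 (*B2m*). Cluster 3 was also a larger part of the class in FMC_new (34.6% of cells, against 14.9% in C-ON). The gap of the whole class holds both differences.

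Foreign RNA was read in both libraries, and free RNA was not told apart from doublets. *Gh* was at 2671 CPM in the oligodendrocyte-like cells of FMC_new, and *Igkc*, an antibody chain of plasma cells, was at 39.9 CPM in those of C-ON and 165 CPM in those of FMC_new. The neuron-like cells of FMC_new, with *Gh* at 2533 CPM, carried *H2-K1* at 86.7 CPM from 15 UMIs, against 90.7 CPM in C-ON, while *B2m* was at 231 against 163 CPM and the leukocyte list at 1000.5 against 90.7 CPM. The part of free RNA in the higher class I values of FMC_new was not tested. Counted per cell, *H2-K1* averaged 4.80 UMIs in cluster 0 of FMC_new and 0.537 in that of C-ON, against 0.750 UMIs in neuron-like and 1.97 in pituitary endocrine-like cells of FMC_new.

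Cluster 28 (47 and 190 cells), also led by *Klk6*, *Il33* and *C4b*, stood between, with *H2-K1* at 1368 and 1731 CPM and *H2-D1* at 1944 and 2474. Beside 7 oligodendrocyte markers this cluster passed for 2 T cell markers, and doublets were not removed. Of the glioma-like clusters, cluster 9, led by *Pdgfra* and *Cspg5* (197 and 917 cells), had *H2-K1* at 694 and 1437 CPM. Cluster 19, led by *Gpr17* and *Neu4* (20 and 482 cells), had it at 1206 and 1665 CPM and held *Tapbp* at 99.9 and 99.8 CPM against 24.6 and 53.2 in cluster 9. The median depth of cluster 19 was 2124 UMIs and that of cluster 9 was 6171.5.

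**Figure D2:**
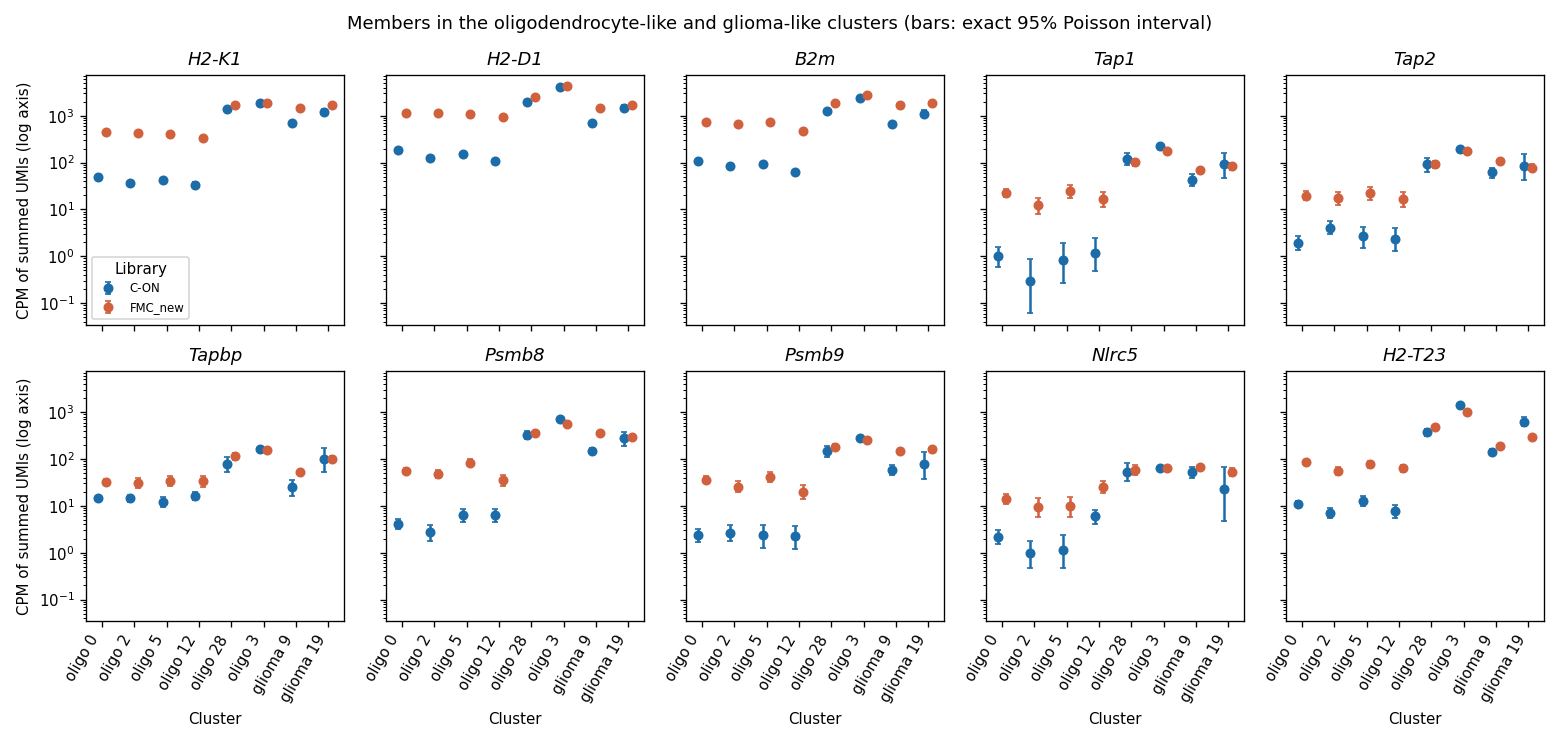
CPM of summed UMIs (log axis) of members in the 6 oligodendrocyte-like and 2 glioma-like clusters, one point for each library with its exact 95% Poisson interval. In cluster 3 the points of both libraries nearly coincide for *H2-K1* (1834 and 1852 CPM) and lie furthest apart for *H2-T23* (1400 and 1003 CPM). *H2-K1* differs far more in clusters 0, 2, 5 and 12 (42.4 and 418 CPM when summed).

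The balance of the heavy chains marked oligodendrocyte-like cells. *H2-D1* made up 70.5% (95% exact binomial interval 70.1 to 70.9) of the UMIs of *H2-D1* and *H2-K1* together in C-ON and 69.4% (69.1 to 69.8) in FMC_new. In glioma-like cells the share was 51.0% (48.8 to 53.3) and 50.1% (49.5 to 50.8), in microglia-like cells 54.5% and 53.4%, and in T cell-like cells 41.7% and 39.6%. Of classes with 20 cells or more, the nearest to the oligodendrocyte-like share was the neutrophil-like class of FMC_new at 65.6%, and neuron-like cells gave 63.8% in C-ON with a wide interval (51.3 to 75.0). The share was 76.2% to 78.8% in clusters 0, 2, 5 and 12 of C-ON, 71.6% to 74.2% in those of FMC_new, 69.6% in cluster 3 of both and 58.7% and 58.8% in cluster 28. A small part of both genes is shared with other class I genes, as given above, and its effect on this share was not tested.

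The immunoproteasome subunits replace constitutive ones: *Psmb8* stands in for *Psmb5*, *Psmb9* for *Psmb6* and *Psmb10* for *Psmb7*. In T cell-like cells *Psmb8* made up 80.7% and 81.7% of the UMIs of its pair, and in dendritic cell-like cells *Psmb9* made up 81.1% and 80.4% of its own. Oligodendrocyte-like cells had a *Psmb8* share of 40.1% (39.3 to 40.9) in C-ON and 58.0% (56.9 to 59.0) in FMC_new. Glioma-like cells were close to these, at 39.9% (35.6 to 44.3) and 56.7% (55.3 to 58.1). For *Psmb9* the shares were 16.6% and 32.9% in oligodendrocyte-like and 18.9% and 36.3% in glioma-like cells.

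*Psmb10*, a subunit outside the 10 genes, separated those classes more, at 29.98% (29.0 to 31.0) and 41.5% (39.9 to 43.1) in oligodendrocyte-like against 47.7% (41.5 to 53.9) and 58.0% (55.9 to 60.1) in glioma-like cells. Neuron-like cells had the lowest shares of *Psmb8*, at 12.0% (4.53 to 24.3) and 17.8% (8.002 to 32.1). Of the UMIs of both transporter subunits, *Tap1* made up 53.5% and 50% in oligodendrocyte-like, 43.0% and 41.3% in glioma-like and 49.2% and 46.8% in T cell-like cells. Other classes were less balanced. Fibroblast-like cells held 17 *Tap1* and 75 *Tap2* UMIs in C-ON and 69 and 220 in FMC_new, and astrocyte-like cells of FMC_new held 57 and 151.

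**Figure D3:**
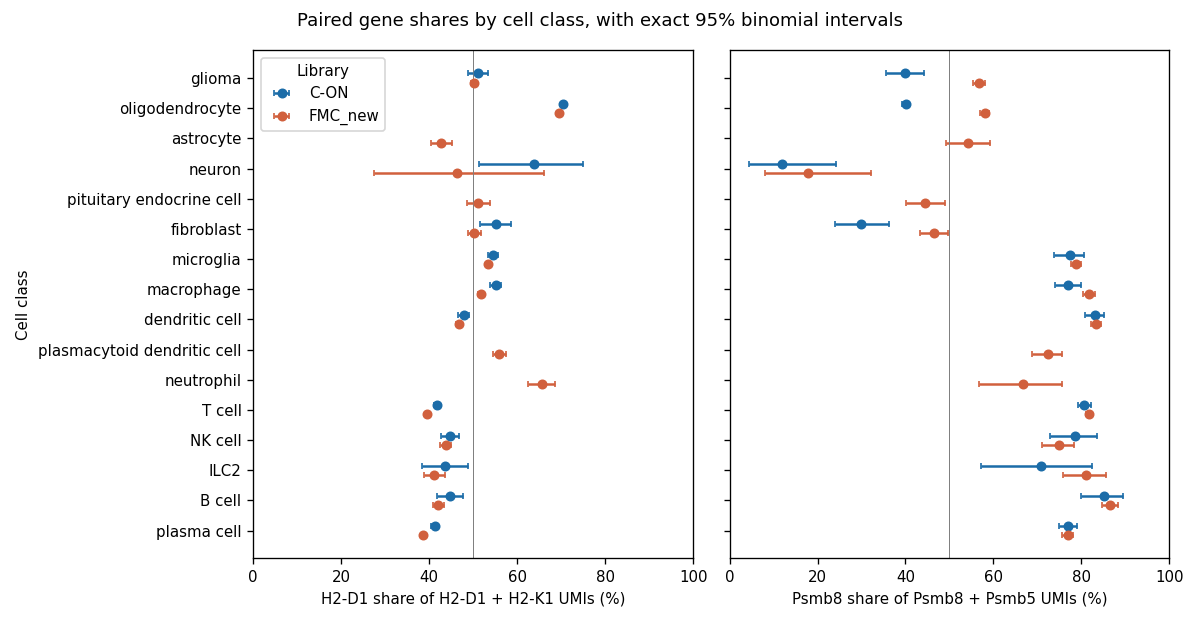
Share (%) that the first gene holds of the UMIs of a pair, by cell class and library, with exact 95% binomial intervals and a line at 50%. The *H2-D1* share is 70.5% and 69.4% in oligodendrocyte-like cells and near 50% in glioma-like cells, while the *Psmb8* share of both classes lies well below that of T cell-like cells (80.7% and 81.7%).

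The third comparison asked whether class I RNA went with an interferon response in oligodendrocyte-like cells. Each cell was thinned to 2000 UMIs and placed in a bin by its UMIs of 22 interferon-induced genes, such as *Iigp1*, *Igtp*, *Gbp2* and *Ifit1*, none of them a member. In C-ON, 3295 cells had 0 such UMIs and 623 had 4 or more, and in FMC_new 644 and 730. The 137 and 191 cells under 2000 UMIs were left out. Counts were summed for each bin and library and tested with edgeR's quasi-likelihood test, with the library as a term.

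All 10 genes rose in the interferon-high cells, where 4.58% of the 14383 genes tested were called higher and 1.86% lower. The median log2 fold change of the members was 5.01, against 0.00 over all genes tested. *H2-K1* was read at 43.3 CPM in interferon-null and 2253 CPM in interferon-high cells of C-ON and at 273 and 1940 CPM in those of FMC_new (log2 fold change 4.41 ± 0.61, SE, adjusted p = 9.5e-04). *H2-D1* went from 153 to 5041 CPM and from 695 to 4250 CPM (3.99 ± 0.53, adjusted p = 7.8e-04). *B2m* went from 92.1 to 2946 CPM and from 437 to 2896 CPM (4.02 ± 0.49, adjusted p = 4.2e-04). For each of these, both interferon-high sums lay above both interferon-null sums.

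The largest change was that of *Tap1*, from 0.705 to 296 CPM in C-ON and from 6.61 to 198 CPM in FMC_new (log2 fold change 6.94 ± 0.73, SE, adjusted p = 1.5e-04 by edgeR). *Tap2* followed its partner with 5.57 ± 0.55 (adjusted p = 8.6e-05). *H2-T23* was next to *Tap1*, from 7.08 to 1803 CPM and from 38.8 to 1080 CPM (6.55 ± 0.76, adjusted p = 2.8e-04). *Psmb8* rose by 6.21 ± 0.74 and *Psmb9* by 5.80 ± 0.65 on the log2 scale (adjusted p = 3.3e-04 and 2.2e-04). *Nlrc5* rose by 4.45 ± 0.46 (adjusted p = 1.2e-04). Tapasin changed least, from 13.9 to 208 CPM and from 20.2 to 172 CPM (3.54 ± 0.27, adjusted p = 1.4e-05), and it had both the smallest standard error and the lowest p of the 10.

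The fold between the ends of the scale was wider in C-ON. Interferon-high over interferon-null cells gave a median of 70.5 times over the 10 genes in C-ON (15.02 for *Tapbp* to 421 for *Tap1*) and of 12.7 times in FMC_new (6.11 for *H2-D1* to 29.9 for *Tap1*). The libraries differed mainly at the low end. FMC_new over C-ON was a median of 5.11 times in cells with 0 interferon-list UMIs, 5.89 times with 1, 3.39 times with 2 to 3 and 0.802 times with 4 or more. There is a single sum for each bin and library, so the difference between the libraries in this fold was not tested.

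Leukocyte transcripts moved less across the bins. The 10 leukocyte genes summed to 64.0 CPM in interferon-null and 302 CPM in interferon-high cells of C-ON and to 314 and 471 CPM in those of FMC_new, and none of them was at 0. In the edgeR fit 2 of the 10, the class II genes *H2-Aa* (log2 fold change 1.78) and *H2-Ab1* (2.40), were called higher. Without the class II genes *Cd74*, *H2-Aa* and *H2-Ab1* the sums were 17.2 and 35.9 CPM and 116 and 156 CPM. All 10 members were also called when cells with a leukocyte UMI were left out (edgeR adjusted p from 2.7e-11 to 1.4e-06). Without the library term 5 of the 10 were called, and *H2-K1*, *H2-D1*, *B2m*, *Psmb8* and *Psmb9* were not.

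Interferon-high cells made up 11.5% of oligodendrocyte-like cells in C-ON and 34.5% in FMC_new, and 14.8% and 40.2% of glioma-like cells. At 2000 UMIs a mean of 1.16 of the 10 genes was detected in an oligodendrocyte-like cell of C-ON and 3.22 in one of FMC_new, and 55.5% and 17.6% of these cells had none. Glioma-like cells had a mean of 1.78 and 3.71 members, and T cell-like cells 5.71 and 5.90.

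Glioma-like cells, binned in the same way and described with no test, also carried more class I RNA with more interferon-list UMIs. *H2-K1* was read at 219 CPM in their 99 interferon-null and at 2380 CPM in their 30 interferon-high cells of C-ON, and at 616 and 2089 CPM in the 241 and 460 such cells of FMC_new. *Psmb8* went from 39.4 to 570 CPM and from 113 to 553 CPM. T cell-like cells started high, with *H2-K1* at 2925 and 3063 CPM in interferon-null and at 4129 and 4103 CPM in interferon-high cells. The interferon-high bins of glioma-like and oligodendrocyte-like cells lay within a narrow range for *H2-K1*, from 1940 to 2380 CPM.

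**Figure D4:**
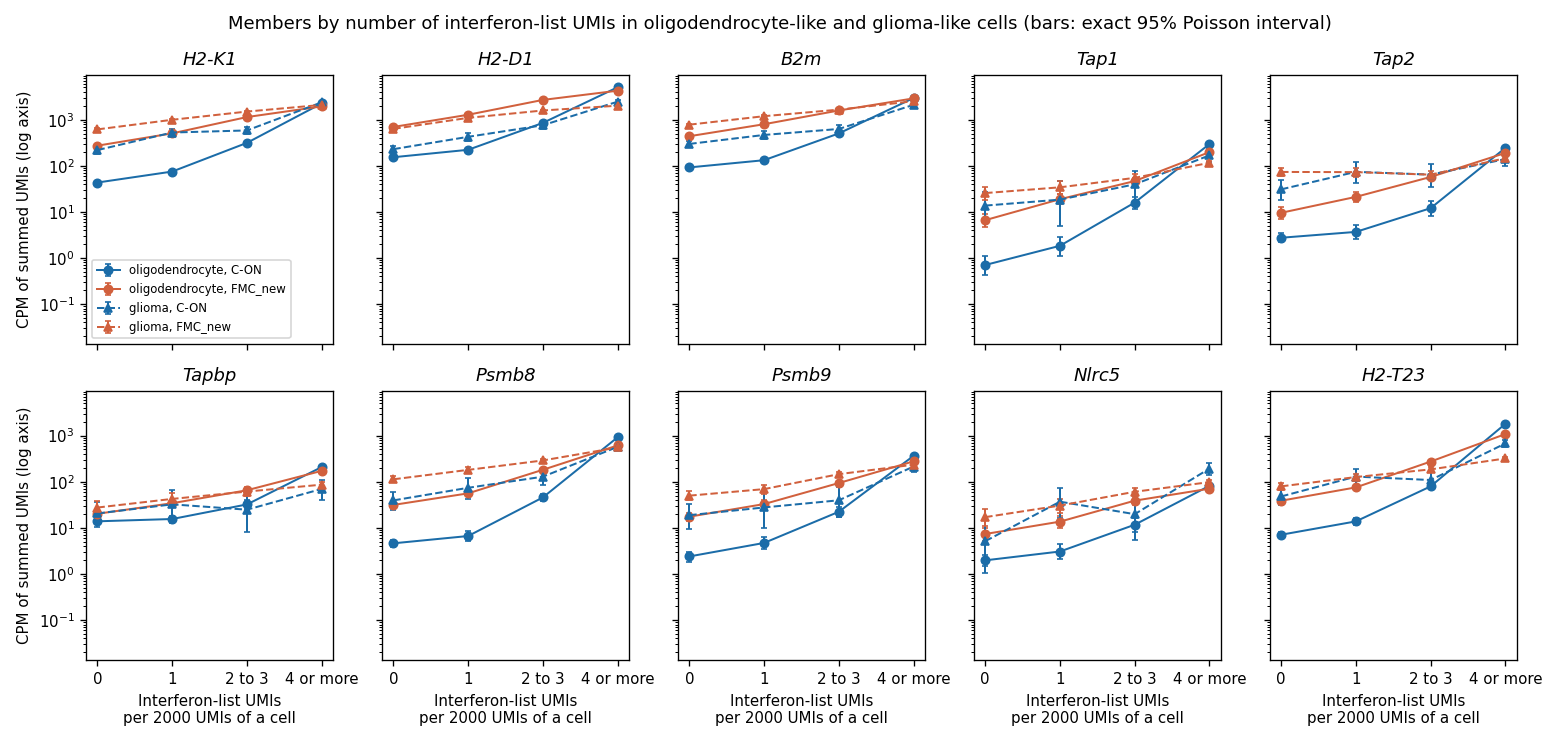
CPM of summed UMIs (log axis, bars for the exact 95% Poisson interval) of members against the number of interferon-list UMIs per 2000 UMIs of a cell, for oligodendrocyte-like and glioma-like cells of each library. The lines of *H2-K1* climb to a like level in the last bin (1940 to 2380 CPM). Their first bin runs from 43.3 CPM in oligodendrocyte-like cells of C-ON to 616 CPM in glioma-like cells of FMC_new. This meeting of the lines is described for *H2-K1* only.

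The rest of the pathway was read from fixed lists in the same edgeR fit. Of 9 other class I heavy chain genes tested, 7 rose in interferon-high oligodendrocyte-like cells, from *H2-T22* (log2 fold change 4.05) to *H2-Q4* (5.63). *Cd1d1* and *Mr1*, which present lipids and vitamin metabolites, did not pass (1.92 and 1.05, adjusted p = 0.14 and 0.21). Of 8 other loading genes 5 rose: the tapasin relative *Tapbpl* (4.75), *Psmb10* (4.19), the proteasome activator subunits *Psme1* (3.23) and *Psme2* (2.36), and the peptide-trimming enzyme *Erap1* (2.40). The general chaperones *Calr*, *Canx* and *Pdia3* were at 0.47, 0.09 and 0.37 and did not pass in edgeR, while DESeq2 called 7 of these 8 genes.

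None of the 3 constitutive proteasome subunits was called, at an unadjusted p under 0.05 or by DESeq2 either, with *Psmb5* at 0.07 ± 0.11, *Psmb6* at -0.04 ± 0.13 and *Psmb7* at -0.05 ± 0.11 (log2 fold change, SE, edgeR adjusted p from 0.84 to 0.95). Among 7 regulators, *Irf1*, a transcription factor induced by interferon, rose by 5.02 and *Ciita*, the class II transactivator, by 4.12 on the log2 scale. The subunits *Rfx5*, *Rfxap* and *Rfxank* of the factor through which *Nlrc5* acts, and the NF-kappaB genes *Rela* and *Nfkb1*, did not pass (-0.25 to 0.67). Of 4 genes of the reactive oligodendrocyte list, *Serpina3n* (2.99), *C4b* (2.87) and *Klk8* (6.49) rose and *Klk6* (1.63) did not pass.

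**Figure D5:**
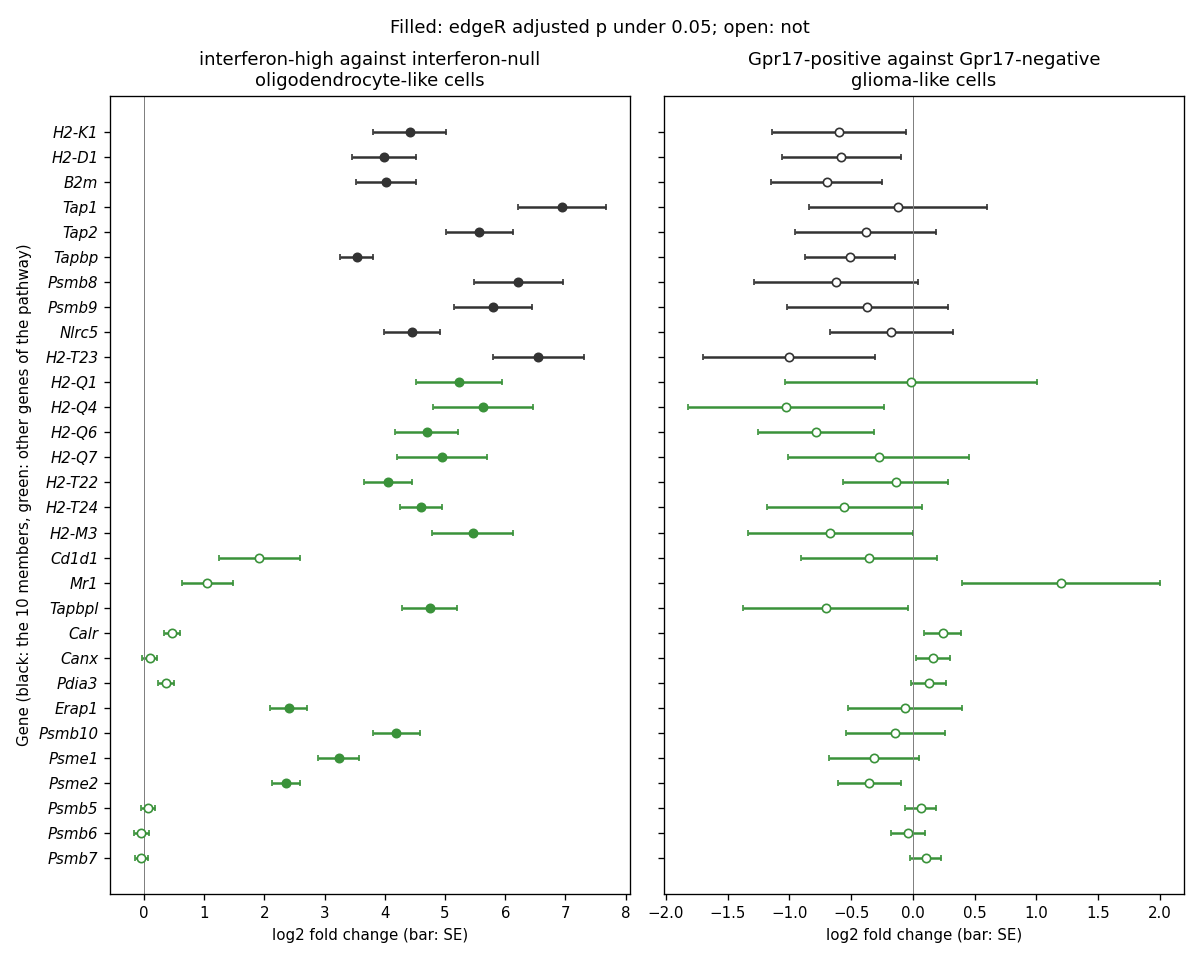
Log2 fold changes (bars, SE) of the 10 members and of other pathway genes in both edgeR contrasts, with filled points for an adjusted p under 0.05. In the interferon contrast all 10 members lie between 3.54 and 6.94 and the constitutive subunits near 0, and in the *Gpr17* contrast no member is filled.

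The fourth comparison asked whether glioma-like cells with *Gpr17*, a marker of committed oligodendrocyte precursors that the study examined in the tumour, differed in class I RNA. After thinning to 2000 UMIs, 57 cells of C-ON and 314 of FMC_new had at least 1 *Gpr17* UMI, and 146 and 831 had none. The 14 and 254 glioma-like cells under 2000 UMIs were left out. Cluster 19, led by *Gpr17*, had a median depth of 6769.5 UMIs in C-ON and 2070.5 in FMC_new, so many of its FMC_new cells lay near or under this limit. None of the 10 genes was called by edgeR, where 0.146% of the 14383 genes were higher and 0.292% lower. None reached an unadjusted p under 0.05 (lowest 0.15, for *B2m*), and DESeq2 also called none. The lists of other class I genes (9 tested), loading genes (8), constitutive subunits (3) and regulators (7) also gave 0 calls by edgeR and by DESeq2, and 1 of these genes had an unadjusted p under 0.05.

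All 10 fold changes were below 0, with a median of -0.54 on the log2 scale against -0.02 over all genes tested, but they shrank or turned for several members when bins were set after thinning to 1000 UMIs (*H2-K1* 0.0005, *H2-D1* 0.013, *B2m* -0.32). *H2-T23* was at 226 CPM in *Gpr17*-negative and 107 CPM in *Gpr17*-positive cells of C-ON and at 232 and 157 CPM in those of FMC_new (-1.004 ± 0.70, SE, edgeR adjusted p = 0.73). *H2-K1* was at 828 and 546 CPM and at 1589 and 1239 CPM (-0.60 ± 0.54, adjusted p = 0.82), and *B2m* at 819 and 491 CPM and at 1916 and 1377 CPM (-0.70 ± 0.45, adjusted p = 0.70). *Tap1* (46.7 and 55.2 CPM) and *Nlrc5* (46.7 and 58.3 CPM) were higher in *Gpr17*-positive cells of C-ON and lower in those of FMC_new. With standard errors of 0.36 to 0.72, changes of this size could not be separated from 0.

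The leukocyte list moved with this contrast. It summed to 2357 CPM in *Gpr17*-negative and 1159 CPM in *Gpr17*-positive cells of C-ON and to 5271 and 1934 CPM in those of FMC_new. Of the 10 genes, 1 was at 0 in the *Gpr17*-positive cells of C-ON. Class II genes made up most of these sums. Without *Cd74*, *H2-Aa* and *H2-Ab1* they were 288 and 187 CPM in C-ON and 1016 and 423 CPM in FMC_new. Of its members *C1qa* (-1.69) and *Tyrobp* (-1.45), both of myeloid cells, were called lower. When cells with a leukocyte UMI were left out, *H2-K1* was at -0.21, *B2m* at -0.20, *H2-T23* at -0.41 and *Tap2* at 0.13, and *Psmb9* at -1.33 on the log2 scale, with none of the 10 called.

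The receptors that read class I were found in lymphocytes and myeloid cells known to carry them. *Cd8a* was at 490 and 551 CPM in T cell-like cells, and *Klrd1*, which encodes CD94, was highest in NK cell-like cells at 612 and 805 CPM, with *Klrc1*, which encodes NKG2A, at 263 and 423 CPM. *Pirb*, an inhibitory class I receptor of myeloid cells, was at 70.0 and 78.0 CPM in macrophage-like and 17.9 and 22.5 CPM in microglia-like cells. Of the 4 receptor genes tested in the interferon contrast, edgeR and DESeq2 called 0, and 2 had an unadjusted p under 0.05 in edgeR.

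Across the 29 sums of a class and library with at least 20 cells, the 10 genes followed each other, with Pearson's r of log2(CPM + 1) between 0.68 (*Tap2* and *Psmb9*) and 0.96. These sums share 2 libraries and their depth, so the values are a description. *H2-K1* and *H2-D1* were nearest to each other of the 16015 genes compared (r = 0.964). *B2m* and *Psmb8* were nearest to *H2-K1* (0.964 and 0.959), *H2-T23* to *H2-D1* (0.956), and *Tap1* and *Psmb9* to *Psmb8* (0.904 and 0.954).

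The 3 remaining members had a nearest gene outside the list: *Ifi35* for *Tap2* (r = 0.957), *Lrrk1* for *Tapbp* (0.915) and the heavy chain gene *H2-Q4* for *Nlrc5* (0.915). The genes nearest to the mean of all 10 were *Relb* (0.955), *Gm12185* (0.948), *Uba7* (0.940), *H2-M3* (0.937) and *Arpc1b* (0.928).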

How the data were processed

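Optic nerve suspensions were sequenced with the 10x Genomics 5′ v2 kit, and the authors deposited raw UMI counts per gene and barcode, made per the labels with Cell Ranger 7.2.0 against mm10 (Seurat 5.2.1 is also named there). Whether intronic reads were counted, and the strand setting, were not given in the sources used here. Counts are the unit of every value here.

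Barcodes with 500 to 5000 genes, 500 to 20000 UMIs and at most 5% mitochondrial UMIs were kept, as 81.5% and 78.8% of the barcodes of the libraries, and doublets were not removed. In Seurat 5.3.0 (R 4.3.3), 1992 variable genes without the members and *Gpr17*, 30 components and CCA integration at a resolution of 0.8 gave 37 clusters. A cluster was named "-like" when at least 3 markers of a type were found in 20% or more of its cells at 2 times or more the mean CPM over all clusters. Clusters led by genes of another type stayed unnamed. For each class and library, the UMIs of a gene were added up and scaled to 1e6 UMIs of all genes (CPM). For shares of cells, 612 cells under 1000 UMIs were left out. Intervals are exact (Poisson, binomial) at 95% and cover counting error only.

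For the tests, UMIs were summed for 4 interferon bins of oligodendrocyte-like and 2 *Gpr17* bins of glioma-like cells in each library, filtered with filterByExpr and fitted together in edgeR 4.0.16 (TMM, quasi-likelihood, two-sided, library as a term), with Benjamini-Hochberg adjustment over all genes and a threshold of 0.05. This pairs sums that come from the same suspension. Cells are not replicates, so sums were tested. With the library as a term, the p-values measure how unlike the differences between bins were in the 2 libraries, pooled over all bins of the fit. They do not measure the spread between animals, since each library is a pooled suspension whose labels name no separate animals. Alternatives covered DESeq2 1.42.0, the normalization, the filter, the library term, the depth of thinning, leukocyte transcripts, clusters, classes, the mitochondrial limit and leaving out a library.

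The members and all gene lists were chosen with earlier results of these data known. Genes named are the members, genes of those lists, the nearest genes by Pearson's r over class sums, leading genes of clusters, and *Gh* and *Igkc* as checks of foreign RNA. Gene positions come from GENCODE and promoters from RefSeq, both on GRCm38. *H2-T10* was not analysed here. No set test was run.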

Additional observations from a re-analysis of the deposited data

How the results depend on the processing

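The call of all 10 members in the interferon comparison held with DESeq2, with its size factors in edgeR, with no filter on low counts, without cells that had a leukocyte UMI and after thinning to 1000 UMIs. With no replicate block, that is, without the library term that pairs the sums, 5 members were called (edgeR adjusted p from 0.00807 to 0.0281) and the other 5 were not (0.0764 to 0.198). Over all genes, the counts called higher and lower were 659 and 267, against 1057 and 522 with no filter, 189 and 19 with no replicate block, 436 and 142 without cells with a leukocyte UMI and 500 and 115 after thinning to 1000 UMIs.

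In the *Gpr17* comparison 0 members were called under each alternative except with no filter on low counts, where 5 were (*H2-K1*, *H2-D1*, *B2m*, *Psmb8* and *H2-T23*). Counts over all genes were 21 and 42, against 111 and 391 with no filter, 0 and 1 with no replicate block, 35 and 41 with DESeq2, 2 and 8 without cells with a leukocyte UMI and 8 and 21 after thinning to 1000 UMIs. Directions turned for *Tap2* (log2 fold change 0.13) without cells with a leukocyte UMI, for *H2-K1* (0.00051) and *H2-D1* (0.013) after thinning to 1000 UMIs, and for *Tap1* and *Nlrc5* with C-ON alone (0.24 and 0.32, against -0.10 and -0.20 with FMC_new alone). The cause of these changes was not tested. Leaving out a library leaves no residual degrees of freedom, so values only were given, and the direction of the interferon comparison was the same in each library for all 10 members.

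The count of members higher in oligodendrocyte-like than in glioma-like cells in both libraries was 3, and became 5 with classes from markers per cell, 5 with a mitochondrial limit of 10% on those classes and 8 without cells with a leukocyte UMI. With a single library it ranged from 3 to 4. Of the CPM of members by class, 7 of 120 moved by more than the spread between the libraries at a resolution of 0.4, 30 of 120 with classes from markers, 25 of 130 as a mean over cells and 100 of 130 without FMC_new. Depth limits the astrocyte-like and neuron-like values of C-ON most, where 1 UMI was worth 14.1 CPM in 20 astrocyte-like cells.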
